A study of Rattus norvegicus with 5 samples.

Results

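The comparison of skin 7 d after irradiation with control skin was made over the cells of the library labelled irradiated 7 days and the library labelled control, 1 library each, across all compartments of the tissue. Cells were kept at 500 or more UMIs (unique molecular identifiers, 1 per captured transcript), 300 or more genes and at most 20% mitochondrial UMIs. This gave 11304 cells at 7 d and 10153 in control, 21457 of the 43408 cells kept over the 5 libraries of the series. The animals were male Sprague-Dawley rats, an outbred stock, and the irradiated skin came from the buttock. They were 4 weeks old on purchase. The irradiated skin had received a single exposure to an electron beam through a field in a lead shield. The control was another piece of skin that had not been irradiated. Its body site, and whether it came from the same rats, are not given. How the rat skin was dissociated is not given in the sources used here. The cells went into 3′ single-cell RNA sequencing. The number of rats in each library is not given in the sources used here. With 1 library a group there is no replicate and no test. Irradiation cannot be told apart from the animal, the body site, the time of day of sampling, the handling of the tissue or the library preparation. The intervals below cover counting error only. The control and 7 d libraries shared 36 cell barcodes among their kept cells.

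Ionising radiation breaks DNA, and p53 then switches on genes for cell cycle arrest (Cdkn1a), for its own feedback control (Mdm2) and for cell death (Bax, Aen). Interferons signal through STAT and IRF factors to genes that restrict viruses (Mx2, Isg15) and that load peptides on MHC class I. NRF2 drives antioxidant enzymes (Hmox1, Txnrd1), and immediate early genes (Fos, Jun, Egr1, Nr4a1) respond within minutes to stress, including the stress of tissue digestion.

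Each cell was placed in a compartment when at least 3 of its fixed marker genes were on and no other compartment reached 3, so a compartment is a range of marker scores and not a cell type proven by other means. The 8 compartments with 50 or more cells in both libraries held 8853 control cells and 9657 cells at 7 d, 87.2% and 85.4% of those kept. Keratinocytes made up 47.5% (46.5 to 48.5%) of control cells and 16.6% (15.9 to 17.3%) at 7 d, and fibroblasts 29.0% (28.1 to 29.9%) and 55.6% (54.7 to 56.5%), with exact Clopper-Pearson intervals at 95%. Keratinocytes were thus the largest compartment of the control library and fibroblasts of the 7 d library. The smaller compartments numbered 108 and 217 endothelial cells, 442 and 554 mural cells (pericytes and smooth muscle of vessels), 107 and 155 Schwann cells, 61 and 153 muscle precursor cells, 295 and 332 mononuclear phagocytes, and 73 and 87 T and NK cells, control first. Neutrophils (48 and 15 cells) and mast cells (35 and 30) were too few to compare. A further 430 and 644 cells reached 3 markers of several compartments and were left out, which is the only treatment of doublets here. Between 17 and 138 control cells and between 23 and 346 cells at 7 d lay exactly at 3 markers in a compartment.

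The marker genes of the 2 most abundant compartments were present at a low level in all others. The 10 keratinocyte markers summed to 722 to 1039 CPM in the other 7 compartments of control and to 591 to 1138 CPM at 7 d, against 31211 and 32955 in keratinocytes. CPM is the UMIs of a gene divided by all UMIs of the compartment, times 1000000. The 8 fibroblast markers summed to 1034 to 4922 CPM outside fibroblasts in control and to 2049.8 to 5427 at 7 d, against 91817 and 86468 in fibroblasts. The fibroblast markers were thus higher at 7 d in 5 of the other 7 compartments, from 1366 to 2862 CPM in mononuclear phagocytes and from 2915 to 5427 in muscle precursor cells, but close in Schwann cells (4922 and 5002) and endothelial cells (2294 and 2209). Muscle precursor cells carried their own 10 markers at 2279.5 and 2772 CPM and the mural markers at 2574 and 1582, so their own markers did not stand above those of fibroblasts. The median cell of every compartment other than fibroblasts had at most 0.523% of its UMIs from fibroblast markers. To keep such RNA out of the comparison, a gene was counted as measured in a compartment only at 50 CPM or more, in 10% or more of the cells and at 0.1 or more of the level in the compartment where it was highest, all read in the library where it was higher, with 20 or more UMIs in all. Ribosomal protein, mitochondrial and gate marker genes were left out. A difference in summed level cannot separate a change in each cell from a change in which cells of a compartment were caught.

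Every compartment held genes that differed between the libraries by 2-fold or more, and the higher genes outnumbered the lower ones in each. Of 2352 genes measured in keratinocytes, 112 (4.76%) were higher at 7 d by 2-fold or more and 73 (3.1%) were lower. Of 2329 genes measured in fibroblasts, 83 (3.56%) were higher at 7 d by 2-fold or more and 37 (1.59%) were lower. Of 2834 genes measured in endothelial cells, 119 (4.2%) were higher at 7 d by 2-fold or more and 81 (2.86%) were lower. Of 2633 genes measured in mural cells, 43 (1.63%) were higher at 7 d by 2-fold or more and 11 (0.418%) were lower, the smallest share of the 8. Of 3102 genes measured in Schwann cells, 118 (3.8%) were higher at 7 d by 2-fold or more and 66 (2.13%) were lower. Of 2855 genes measured in muscle precursor cells, 243 (8.51%) were higher at 7 d by 2-fold or more and 184 (6.44%) were lower. Of 2287 genes measured in mononuclear phagocytes, 146 (6.38%) were higher at 7 d by 2-fold or more and 81 (3.54%) were lower. Of 2493 genes measured in T and NK cells, 274 (11%) were higher at 7 d by 2-fold or more and 88 (3.53%) were lower, the largest share of higher genes. T and NK cells and muscle precursor cells also had the fewest UMIs (359561 and 349200 in control, against 61201782 in keratinocytes). A gene that passes 50 CPM in the higher library alone has to differ, so these shares are a background for the members below and not findings. As a choice made after the data were seen, each count was also taken over the genes at 50 CPM or more in both libraries, where no gene enters through 1 library alone. The shares of higher genes were then 2.7% in keratinocytes, 2.31% in fibroblasts, 2.4% in endothelial cells, 0.623% in mural cells, 1.89% in Schwann cells, 3.75% in muscle precursor cells, 4.31% in phagocytes and 6.13% in T and NK cells, and those of lower genes 1.67% in keratinocytes, 1.05% in fibroblasts, 1.47% in endothelial cells, 0.134% in mural cells, 1.05% in Schwann cells, 3.09% in muscle precursor cells, 2.4% in phagocytes and 1.18% in T and NK cells. The median log2 ratio over all measured genes lay between -0.08 and 0.12 in the 8 compartments.

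Across compartments, 2126 genes were measured in 5 or more. Of these, 127 were higher at 7 d in every compartment where they were measured and 117 were lower in every one, while 1882 went both ways. All compartments come from the same 2 libraries, so a library-wide difference would appear in each of them. With the 2-fold limit set in every compartment where measured, 14 genes (0.659%) were higher and 0 (0%) were lower. The 14 were Mx2, Irf7, RT1-T24-3, Lgals3bp, Ly6e, Aen, Mmp2, Ifi44, Socs3, Ifi27, RT1-S3, RT1-T24-4, Phlda3 and Nr1d1, the last 2 named because they complete the count. Most of these entered through the 7 d library, so they had to differ. Mx2, Irf7, Lgals3bp, Ifi44 and Socs3 were under 50 CPM in control in every compartment, Aen reached it in 1 of 5, RT1-T24-3 in 2 of 7, RT1-T24-4 in 2 of 7, Ly6e in 3 of 6, RT1-S3 in 4 of 7 and Mmp2 in 4 of 5. Ifi27 reached it in all 8. With 50 CPM asked of both libraries, 1681 genes were measured in 5 or more compartments, and 2 of them (0.119%), Ifi27 and Phlda3, were 2-fold or more higher in each, against 0 (0%) lower. The 14 genes are therefore given as a description and no weight is put on their number.

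**Figure D1:**
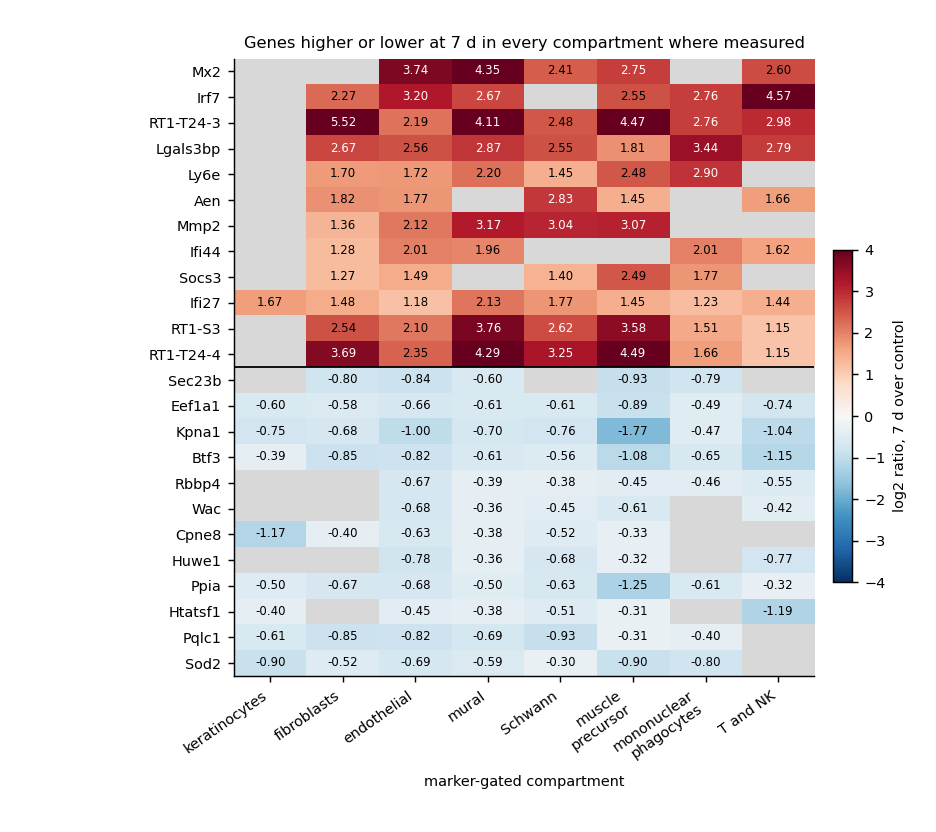
Log2 ratio of 7 d over control (colour and printed value) for the 12 genes highest and the 12 genes lowest by their ratio nearest to 0, in rows, over the 8 compartments, in columns, with grey where a gene was not measured. The upper 12 rows lie between 1.15 and 5.52 and the lower 12 between -1.77 and -0.30.

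Ifi27, a small mitochondrial protein that is a standard interferon marker, was 2-fold or more higher at 7 d in all 8 compartments and had at least 50 CPM in control in each. It went from 339 to 1077 CPM in keratinocytes, from 732 to 2044 in fibroblasts, from 1781 to 4025 in endothelial cells and from 582 to 2554 in mural cells. In Schwann cells it went from 508 to 1728 CPM, in muscle precursor cells from 1197 to 3265, in mononuclear phagocytes from 641 to 1505 and in T and NK cells from 537 to 1461. The 7 d level was above the control level of the same compartment every time, with log2 ratios between 1.18 (endothelial cells) and 2.13 (mural cells). Ifitm3, a membrane protein that blocks virus entry and the most abundant member of the interferon list, did not pass 2-fold in any of the 6 compartments where it was measured. It went from 1351 to 1261 CPM in keratinocytes (log2 ratio -0.10), from 1999 to 3058 in fibroblasts (0.61), from 3091 to 5076 in endothelial cells (0.72), from 2129 to 3376 in mural cells (0.67), from 859.8 to 1676 in Schwann cells (0.96) and from 1607 to 2616 in muscle precursor cells (0.70). Ifi27l2b, a relative of Ifi27, went from 81.3 to 1504 CPM in fibroblasts and from 824 to 3973 in endothelial cells, but from 531 to 987 in T and NK cells, under 2-fold.

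Mx2, a dynamin-like GTPase that blocks viruses, was at 13.4 CPM in control endothelial cells and 179 at 7 d, and at 4.82 and 98.2 in mural cells. It had 0 UMIs in control T and NK cells and in control muscle precursor cells, where the exact upper limits are 10.3 and 10.6 CPM. At 7 d it was at 50.5 and 57.9 CPM. With the 0 set to 3 UMIs (8.34 and 8.59 CPM), these levels were 6.06-fold and 6.74-fold higher. Mx2 was therefore present at 7 d in vessels, nerve, muscle and lymphocytes, from low levels in control. In keratinocytes it went from 0.163 to 3.19 CPM, below the limit for being measured. Irf7, the factor that amplifies the type I interferon response, was at 21.9 and 201 CPM in endothelial cells, 10.9 and 74.2 in mononuclear phagocytes and 2.78 and 65.9 in T and NK cells, control first. In the 6 compartments where it was measured its log2 ratio was 2.27 or more. Ifi44, an interferon-induced cytoplasmic protein, went from 31.6 to 127 CPM in endothelial cells and from 27.8 to 85.7 in T and NK cells. Ly6e, a membrane protein of the same response, went from 329 to 1072 CPM in fibroblasts and from 84.2 to 628 in phagocytes. It stood at 60.2 and 71.1 CPM in keratinocytes and at 66.7 and 94.5 in T and NK cells, control first. Both differences were under 2-fold, and Ly6e was not counted as measured in either compartment. Lgals3bp, a secreted galectin-binding glycoprotein, went from 44.5 to 283 CPM in fibroblasts and from 8.75 to 94.6 in phagocytes.

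Some MHC class I heavy chains were higher as well. RT1-T24-3 was at 7.96 CPM in control fibroblasts and 364 at 7 d (log2 ratio 5.52, interval 5.34 to 5.69), and at 22.9 and 395 in mural cells. RT1-S3 and RT1-T24-4 were likewise more than 2-fold higher in each of the 7 compartments where they were measured, all but keratinocytes. The rat class I genes are near-identical copies whose reads a counting program can place on the wrong member, and outbred rats differ in them, so the level of a single RT1 gene is uncertain. RT1-A2, one of the classical heavy chains, was at 153 and 295 CPM in keratinocytes and 592 and 1516 in T and NK cells. RT1-CE10, the most abundant heavy chain of the list, had log2 ratios from -0.35 in T and NK cells (1457 and 1143 CPM) to 1.26 in endothelial cells (729 and 1745). B2m, the light chain, is a gene of its own and was higher in all 8 compartments by log2 0.29 (T and NK cells) to 0.84 (muscle precursor cells), for example from 5359 to 7959.9 CPM in fibroblasts. This is under 2-fold everywhere. Psme1, a proteasome activator subunit, lay between -0.12 and 0.68.

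Over whole lists, 21 of 27 interferon response genes measured in endothelial cells were 2-fold or more higher, 12 of 16 in fibroblasts, 11 of 16 in mural cells, 11 of 14 in Schwann cells, 11 of 14 in T and NK cells, 10 of 12 in muscle precursor cells, 7 of 14 in mononuclear phagocytes and 2 of 4 in keratinocytes. These counts hold members that entered through the 7 d library alone. Over members at 50 CPM or more in both libraries the counts were 1 of 3 in keratinocytes, 6 of 10 in fibroblasts, 9 of 14 in endothelial cells, 2 of 7 in mural cells, 3 of 5 in Schwann cells, 4 of 5 in muscle precursor cells, 2 of 9 in phagocytes and 4 of 7 in T and NK cells, beside the shares of all such genes given above, 0.623% in mural cells to 6.13% in T and NK cells. Their median was 1.77 in Schwann cells, 1.08 in endothelial cells, 0.48 in phagocytes and -0.10, below 0, over the 3 members in keratinocytes. Over all measured members, the list's median log2 ratio was 1.96 in Schwann cells, 1.85 in endothelial cells, 0.97 in phagocytes and 0.78 in keratinocytes. Single members went the other way. Cxcl10, a T cell chemokine, was lower in phagocytes (558 and 199.7 CPM) and Gbp2, an interferon-induced GTPase, was lower in muscle precursor cells (146 and 42.3). The MHC class I list had 10 of 13 members higher in endothelial cells with 50 CPM in both libraries, 4 of 11 in fibroblasts, 4 of 12 in T and NK cells and 0 of 6 in mural cells. The shares of all such genes higher there were 2.4%, 2.31%, 6.13% and 0.623%. The list's medians over all measured members were between 0.65 (T and NK cells) and 1.31 (mural cells), and its transporter Tap1 was near 0 in fibroblasts (log2 ratio 0.00) and 1.11 in T and NK cells.

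Promoters were read because the 14 shared genes were higher at 7 d in every compartment where they were measured. RefSeq promoters of the GRCr8 build, 250 bases before to 50 after each start, were found for 11 of the 14 genes (12 promoters). The core of the interferon-stimulated response element, GAAANNGAA on either strand, occurred in those of 5 genes, Irf7, Ifi44, Ifi27, Lgals3bp and RT1-S3, and in 9.71% of all 33469 promoters of that length. The heat shock element GAANNTTC, the AP-1 site TGANTCA and the cAMP response element TGACGTCA occurred in 0 of the 12, against 8.59%, 7.33% and 1.83% of all promoters, and the E-box CACGTG occurred in Aen and Nr1d1, against 6.42%. The consensus p53 response element, searched without mismatches, was in 0 of all 33469. Among the 12 genes lowest in every compartment where measured, 10 of which had a promoter, 1 (Eef1a1) held the interferon core. A match is a description of the sequence and not a bound site. The 4 stretches that follow show the bases before the start in genes whose levels are given here, 5′ to 3′ on the gene's strand, with the core in capitals, which in Irf7 and Ifi44 is read as its reverse complement. The RT1-S3 stretch is left out, since its copies are near-identical. They lie at chr1:205800053-205800121 on the minus strand (Irf7), chr2:243303841-243303895 on the minus strand (Ifi44), chr6:128355113-128355266 on the plus strand (Ifi27) and chr10:104127860-104127928 on the minus strand (Lgals3bp).
Irf7: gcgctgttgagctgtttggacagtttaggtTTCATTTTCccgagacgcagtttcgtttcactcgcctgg
Ifi44: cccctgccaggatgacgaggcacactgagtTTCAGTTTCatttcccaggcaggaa
Ifi27: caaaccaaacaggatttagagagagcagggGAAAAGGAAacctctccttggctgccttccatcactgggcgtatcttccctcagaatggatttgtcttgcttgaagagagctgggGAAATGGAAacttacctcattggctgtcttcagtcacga
Lgals3bp: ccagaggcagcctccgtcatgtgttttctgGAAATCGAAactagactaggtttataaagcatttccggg

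The p53 targets differed in size between compartments. Cdkn1a, the p21 inhibitor of the cell cycle, was at 165 CPM in control fibroblasts and 1050.2 at 7 d, at 162 and 894 in Schwann cells and at 326 and 1523 in muscle precursor cells. In endothelial cells it was at 470.4 and 1384 CPM, in T and NK cells at 72.3 and 193, in phagocytes at 392 and 795 and in keratinocytes at 464 and 863. Mural cells differed least, with 526 and 718 CPM. The log2 ratio thus ran from 0.45 (0.36 to 0.55) in mural cells to 2.67 (2.63 to 2.71) in fibroblasts, intervals that do not overlap, and all 8 ratios were above 0. Mdm2, the ligase that degrades p53, had the same lowest and highest compartments, at 97.6 and 181 CPM in mural cells (log2 ratio 0.89) and 102 and 699 in fibroblasts (2.77). Keratinocytes, at 1.82, had a larger ratio for Mdm2 than for Cdkn1a (0.90). With a share of the whole-library profile subtracted, Cdkn1a had log2 ratios of 0.80 in T and NK cells and 0.98 in phagocytes, both under 2-fold. Mdm2 then had 0.51 in T and NK cells and 0.65 in mural cells, so mural cells were no longer its lowest compartment. Fibroblasts stayed highest, with 2.74 for Cdkn1a and 2.79 for Mdm2, and all 8 ratios of both genes stayed above 0.

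**Figure D2:**
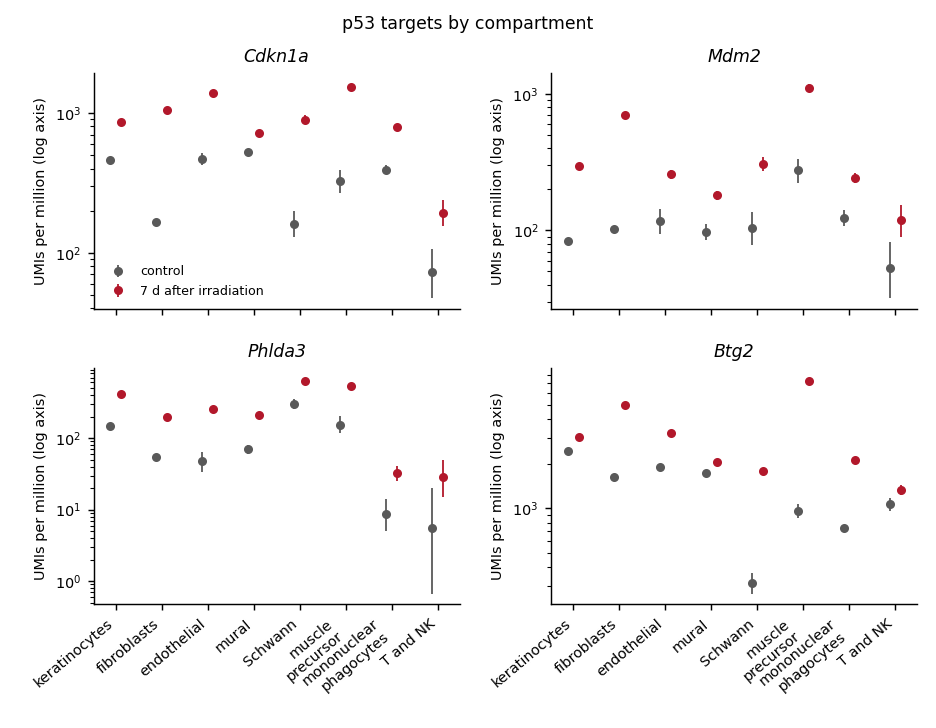
Levels of 4 p53 targets in CPM (log axis) in each compartment, control in grey and 7 d in red, with exact Poisson intervals at 95% that cover counting error only. All 8 compartments of each panel have the 7 d point above the control point, and mural cells have the smallest gap for Cdkn1a, Mdm2 and Btg2.

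Phlda3, a repressor of Akt signalling, was at 47.4 and 253 CPM in endothelial cells, 149 and 417 in keratinocytes and 302 and 619.7 in Schwann cells. Aen, a nuclease of p53-dependent death, went from 13.5 to 95.5 CPM in Schwann cells and from 20.3 to 71.5 in fibroblasts. Btg2, an antiproliferative gene that is also an immediate early gene, was the most abundant member and was 2-fold or more higher in fibroblasts, Schwann cells, muscle precursor cells and phagocytes, with log2 ratios of 1.63, 2.53, 2.94 and 1.53. Gadd45a, a DNA damage and stress gene, was not among them, and its log2 ratio lay between -0.69 (Schwann cells) and 0.15 (T and NK cells). Among members named after their values were seen, Bax, which permeabilises mitochondria, was at 108 and 334 CPM in endothelial cells but 144 and 134 in phagocytes, and Ccng1, a cyclin of the p53 feedback loop, was lower in phagocytes (log2 ratio -0.72) while it was 1.85 in keratinocytes. Gdf15, a stress cytokine, was at 242 and 1799 CPM in endothelial cells and 643 and 729 in phagocytes. Abcb1a, a drug efflux pump, went from 3.47 to 141 CPM in fibroblasts and from 5.73 to 100.2 in muscle precursor cells.

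Counting the list, 11 of 15 p53 targets measured in muscle precursor cells were 2-fold or more higher, 8 of 13 in fibroblasts, 8 of 12 in T and NK cells, 7 of 13 in endothelial cells, 6 of 13 in keratinocytes and 6 of 11 in Schwann cells, but only 3 of 12 in mural cells and 3 of 12 in phagocytes. With 50 CPM asked of both libraries the counts were 4 of 11 in keratinocytes, 4 of 9 in fibroblasts, 4 of 10 in endothelial cells, 2 of 9 in mural cells, 4 of 8 in Schwann cells, 7 of 11 in muscle precursor cells, 3 of 11 in phagocytes and 2 of 6 in T and NK cells, beside the shares of all such genes given above, and the medians 1.45 in muscle precursor cells, 0.84 in fibroblasts, 0.31 in phagocytes and 0.25 in mural cells. No member was 2-fold lower in any of the 8. Over all measured members the medians ran from 0.35 in mural cells and 0.35 in phagocytes to 1.63 in fibroblasts and 1.78 in muscle precursor cells, beside medians of 0.03, 0.00, -0.04 and -0.08 over all measured genes. The DNA repair list had at most 3 measured members in a compartment, none 2-fold different, and its most abundant members, the histone variant gene H2afx and the strand break sensor Parp1, had ratios between -0.85 and 0.58 and between -0.22 and 0.48.

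Of the shared genes outside these lists, Mmp2, the gelatinase of connective tissue, was highest in fibroblasts, at 1143 CPM in control and 2933 at 7 d. It was also at 51.9 and 428 CPM in Schwann cells, 41.0 and 369 in mural cells, 97.4 and 820.2 in muscle precursor cells and 72.9 and 317 in endothelial cells. The fibroblast markers went from 4922 to 5002 CPM in Schwann cells and from 2531 to 4369.6 in mural cells over the same libraries. With a share of the whole-library profile subtracted (5.25% and 7.59% in Schwann cells), Mmp2 had log2 ratios of 3.28 in Schwann cells, 3.46 in mural cells, 3.103 in muscle precursor cells and 1.98 in endothelial cells. Outside keratinocytes this share was set from the keratinocyte markers, so any RNA of fibroblasts beyond it was left in. The part of such RNA in the Mmp2 levels was not tested. Under the same subtraction 3 ratios of the 14 genes went below 2-fold, Ly6e in Schwann cells (log2 0.93), RT1-S3 in T and NK cells (0.994) and Nr1d1 in mural cells (0.999). Socs3, the feedback inhibitor of cytokine signalling, was 2-fold or more higher in the 5 compartments where measured, but stood at 39.4 and 22.2 CPM in keratinocytes and 44.2 and 46.6 in mural cells, where it was not counted as measured, nor in T and NK cells (11.1 and 6.59). Nr1d1, the clock repressor Rev-erb alpha, was higher in 7 compartments, from 38.1 to 137 CPM in fibroblasts, 24.9 to 79.0 in keratinocytes and 62.3 to 127 in mural cells. Its level follows the time of day, and the sampling time of either library is not given in the sources used here.

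Among the genes lower in every compartment 0 passed 2-fold in each, and the 12 lowest included housekeeping genes of translation and protein folding. Eef1a1, the elongation factor that brings tRNA to the ribosome, was at 1608 and 1061 CPM in keratinocytes, 909 and 607 in fibroblasts and 2684 and 1606 in T and NK cells. Its 8 log2 ratios lay between -0.89 and -0.49, a narrow range for compartments whose levels differed. Ppia, cyclophilin A, was between -1.25 and -0.32 in the 8, Btf3, a factor that binds nascent proteins, between -1.15 and -0.39, and Kpna1, a nuclear import receptor, between -1.77 and -0.47. Sod2, the mitochondrial superoxide dismutase, was lower in the 7 compartments where measured, from 4453 to 2752 CPM in endothelial cells and from 522 to 279.6 in keratinocytes. Pqlc1, Sec23b (a coat protein of secretory vesicles), Cpne8, Rbbp4 (a histone chaperone), Wac, Huwe1 (a ubiquitin ligase) and Htatsf1 made up the rest, with ratios nearest to 0 between -0.60 and -0.31. A lower gene enters through the control library, so these had at least 50 CPM in control wherever measured. The oxidative phosphorylation list, 27 members measured in each compartment, had medians between -0.30 and 0.14 and 0 members past 2-fold. Cox4i1 and Cox8a, subunits of cytochrome oxidase and its most abundant members, lay between -0.20 and 0.07 and between -0.20 and 0.16.

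**Figure D3:**
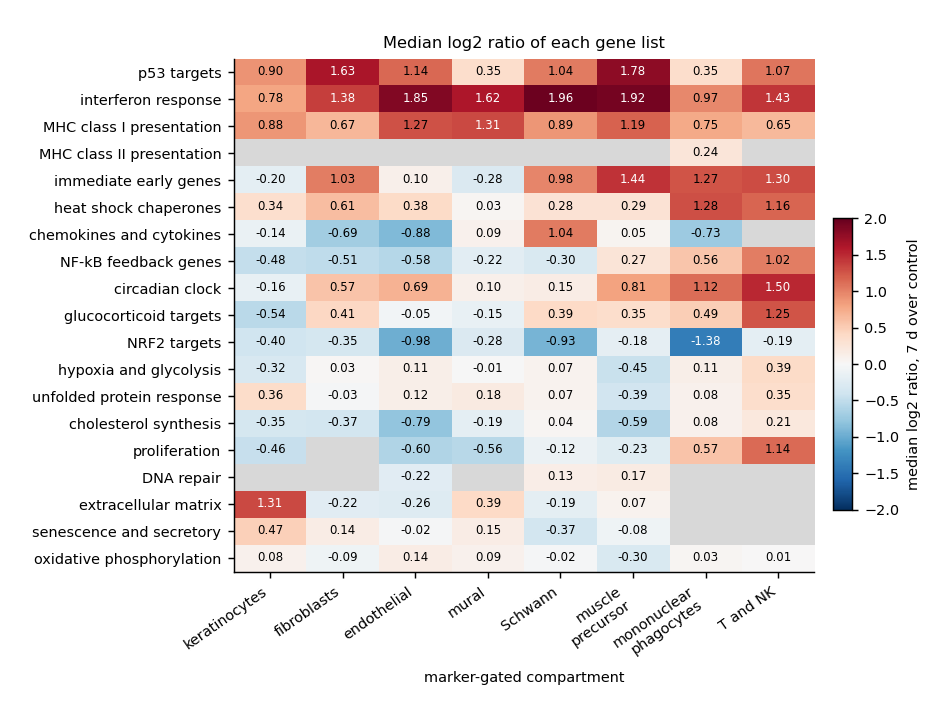
Median log2 ratio of 7 d over control for each fixed gene list (rows) in each compartment (columns), shown where 3 or more members were measured and grey elsewhere. The p53, interferon and MHC class I rows are above 0 in all 8 columns (with 50 CPM asked of both libraries the interferon median is -0.10 in keratinocytes), the NRF2 row is below 0 in all 8, and the immediate early row is above 0.9 in 5 columns and between -0.28 and 0.10 in keratinocytes, endothelial and mural cells.

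The immediate early genes split the compartments. In fibroblasts, Schwann cells, muscle precursor cells, phagocytes and T and NK cells, 13 of 25, 13 of 26, 14 of 24, 18 of 25 and 15 of 22 members were 2-fold or more higher. The shares of all measured genes higher there were 3.56%, 3.8%, 8.51%, 6.38% and 11%. In keratinocytes 0 of 25 were higher and 3 lower, in mural cells 0 of 25 either way, and in endothelial cells 1 of 27 was higher and 1 lower. Over all measured genes, 4.76% were higher and 3.1% lower in keratinocytes, 1.63% and 0.418% in mural cells, and 4.2% and 2.86% in endothelial cells. With 50 CPM asked of both libraries the higher counts were 0 of 24 in keratinocytes, 12 of 23 in fibroblasts, 1 of 25 in endothelial cells, 0 of 23 in mural cells, 13 of 26 in Schwann cells, 14 of 23 in muscle precursor cells, 17 of 24 in phagocytes and 14 of 20 in T and NK cells. Fos was at 974 and 9138 CPM in muscle precursor cells, 1058 and 4948 in Schwann cells and 1549.7 and 5136 in fibroblasts, but at 3432 and 3189 in keratinocytes and 3308 and 3957 in mural cells. The compartments without a 2-fold difference in Fos were the 3 with the highest Fos in control. Jun, its partner in AP-1, was at 959 and 5718 CPM in muscle precursor cells and 3935 and 3484 in keratinocytes. Fosb, of the Fos family, had log2 ratios between 0.51 in mural cells and 3.002 in T and NK cells (259 and 2072 CPM). Egr1, named after its values were seen, was at 905 and 2804 CPM in fibroblasts and was lower in keratinocytes (1444 and 998) and mural cells (2561 and 1813).

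Nr4a1, which encodes the nuclear receptor Nur77 and belongs to this list, was highest in ratio among the same compartments. It was at 61.2 and 257 CPM in T and NK cells (log2 ratio 2.07, 1.41 to 2.80), 64.0 and 163 in phagocytes (1.35), 194 and 455 in Schwann cells (1.23), 175 and 309 in fibroblasts (0.82, 0.77 to 0.86) and 88.8 and 133 in muscle precursor cells (0.58, -0.03 to 1.23). In keratinocytes it was at 157 and 175 CPM (0.16), in endothelial cells at 261 and 272 (0.06, -0.16 to 0.28) and in mural cells, which had the highest control level, at 521 and 419 (-0.31). Of the 8 compartments, 3 passed 2-fold. The part of tissue handling in the level of these genes was not tested.

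Heat shock chaperones had their highest medians in the immune compartments, with 7 of 10 members in phagocytes and 7 of 11 in T and NK cells 2-fold or more higher (6 of 9 and 4 of 8 with 50 CPM in both libraries) and medians of 1.28 and 1.16 against 0.03 to 0.61 elsewhere. The shares of all measured genes higher in these 2 compartments were 6.38% and 11% (4.31% and 6.13% with 50 CPM in both libraries). The share of whole-library RNA set from the keratinocyte markers was 4.47% and 8.78% in phagocytes and 4.26% and 10.2% in T and NK cells, control first. The medians above were taken without subtracting it, and the part of such RNA in them was not tested. Hspa1b, the inducible Hsp70, whose reads its near-identical copy Hspa1a can share, was higher in all 8, from 161 to 1059 CPM in phagocytes, 139 to 866 in T and NK cells, 1656 to 4802 in fibroblasts and 1038 to 1533 in keratinocytes. The most abundant members, the cytosolic Hsp90ab1 and the constitutive Hspa8, had ratios between -0.02 and 0.77 and between -0.31 and 1.16, highest in T and NK cells. Hspe1, the mitochondrial co-chaperonin, went opposite ways, higher in T and NK cells (47.3 and 114 CPM) and lower in muscle precursor cells (132 and 43.8). Over all measured members, glucocorticoid targets and NF-kB feedback genes were highest in T and NK cells too, with medians of 1.25 and 1.02. They were lowest in keratinocytes (-0.54) and endothelial cells (-0.58) respectively. With 50 CPM asked of both libraries, the glucocorticoid median was 1.06 in T and NK cells and -0.28 in keratinocytes. The NF-kB median was then 0.47 in T and NK cells, below the 0.56 of phagocytes, so T and NK cells were no longer highest. Nfkbia, the inhibitor of NF-kB, went from 356 to 1356 CPM in T and NK cells, while Nfkb1, which encodes the p50 subunit, was lower in fibroblasts (430.4 and 159). Icam1, an adhesion molecule for leukocytes, had ratios between -0.48 and 1.56. Of the glucocorticoid list, the metallothioneins Mt1 and Mt2A were the most abundant. Mt1 was 2-fold or more higher in T and NK cells (186 and 615 CPM) and endothelial cells (541 and 1482) and lower in keratinocytes (log2 ratio -0.28), and Mt2A lay between -0.54 and 0.86.

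NRF2 targets had a median below 0 in all 8 compartments, furthest in phagocytes (-1.38, 7 of 9 2-fold or more lower), endothelial cells (-0.98, 3 of 8) and Schwann cells (-0.93, 4 of 8). With 50 CPM asked of both libraries the lower counts in these were 4 of 5, 1 of 5 and 3 of 6, and the medians -1.30, -0.96 and -0.68. The shares of all measured genes lower in these compartments were 3.54%, 2.86% and 2.13%, and 2.4%, 1.47% and 1.05% with that minimum. In phagocytes, Hmox1, which degrades heme, was at 2767 CPM in control and 696 at 7 d, Prdx1, a peroxidase, at 1163 and 291, and Slc7a11, the cystine importer, at 293 and 33.2. Txnrd1, thioredoxin reductase, was lower in all 8 compartments, by log2 -1.15 in fibroblasts, -1.09 in Schwann cells, -1.05 in keratinocytes and -0.25 in T and NK cells. Prdx1 was an exception in keratinocytes, where it was higher (392 and 680.5 CPM), and Gsta4, a glutathione transferase, was higher in Schwann cells (50.01 and 123). Ugdh, which makes the sugar of hyaluronan, was at 1118 and 609 CPM in fibroblasts and 594 and 295 in Schwann cells.

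**Figure D4:**
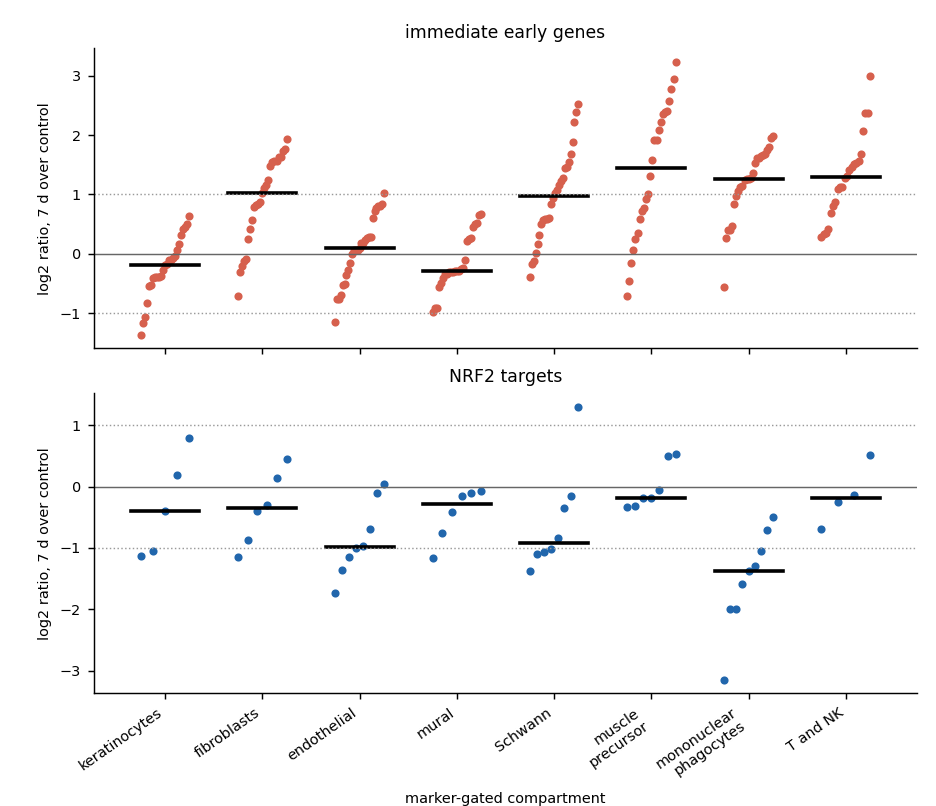
Log2 ratio of 7 d over control for each measured immediate early gene (upper panel) and NRF2 target (lower panel), one point a gene, sorted within each compartment, with the median as a black bar and dotted lines at 2-fold either way. In the upper panel the medians of fibroblasts, Schwann, muscle precursor, phagocyte and T and NK compartments lie between 0.98 and 1.44 and the other 3 between -0.28 and 0.10; in the lower panel phagocytes have the lowest median, -1.38.

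Chemokines were lower at 7 d in fibroblasts, endothelial cells and phagocytes, 4 of 8, 2 of 11 and 3 of 8 members by 2-fold or more (4 of 8, 1 of 9 and 3 of 8 with 50 CPM in both libraries). The shares of all measured genes lower there were 1.59%, 2.86% and 3.54% (1.05%, 1.47% and 2.4% with 50 CPM in both libraries). Cxcl1, a neutrophil attractant, was at 14421 and 7172 CPM in fibroblasts and 8329 and 2870.2 in phagocytes, but at 7789 and 7396 in mural cells. Cxcl3, of the same family, was at 427 and 11.7 CPM in endothelial cells and 2697 and 350.2 in fibroblasts. Ccl2, the monocyte attractant, was at 18442 and 6167 CPM in fibroblasts and 7023 and 3252 in endothelial cells. Cxcl14, a chemokine of epithelia, went the other way in keratinocytes (660.5 and 2433 CPM) and Schwann cells (165 and 615). Ccl5 was lower in T and NK cells (11931 and 6151), within 2-fold.

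Proliferation genes were higher in T and NK cells, 4 of 8 members by 2-fold or more (median 1.14) and 1 of 5 with 50 CPM in both libraries (median 0.91). The shares of all genes higher there were 11% and 6.13%. In the other 6 compartments with 3 or more members measured 0 were 2-fold higher, and medians ran from -0.60 in endothelial cells to 0.57 in phagocytes. Tubb5, a tubulin, went from 203 to 514 CPM in T and NK cells, and Mki67, the cycling marker, named after its values were seen, from 33.4 to 143. Stmn1, which destabilises microtubules, was lower in muscle precursor cells (158 and 18.8) and Hmgb2, a chromatin protein, lower in keratinocytes (769 and 385). Among the other lists, the extracellular matrix list had a median of -0.22 over 28 members in fibroblasts, 0.39 over 20 in mural cells and 1.31 over 3 in keratinocytes. The fibroblast markers in keratinocytes summed to 1034 and 2049.8 CPM, and their part in that value was not tested. Sparc, a collagen-binding glycoprotein and the most abundant member, had ratios between -0.33 and 0.31, and Timp1, an inhibitor of metalloproteinases, was lower in fibroblasts (3553 and 1782 CPM) and endothelial cells (1635 and 741), with a range of -1.14 to 0.15. Cholesterol synthesis had its lowest median in endothelial cells (-0.79), the unfolded protein response lay between -0.39 and 0.36, hypoxia and glycolysis between -0.45 and 0.39, and the senescence and secretory list between -0.37 and 0.47 where 3 or more members were measured. MHC class II was measured in phagocytes alone, with 4 members and a median of 0.24. The circadian list ran from -0.16 in keratinocytes to 1.501 in T and NK cells over all measured members. With 50 CPM in both libraries it had 1 member in T and NK cells, 1 in phagocytes, 2 in keratinocytes and 2 in endothelial cells. Its other members in T and NK cells reached 50 CPM in 1 library alone.

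The most abundant members of these remaining lists were within 2-fold in most compartments. Ldha, lactate dehydrogenase, had log2 ratios between -0.60 and 1.11 over the 8 compartments and was 2-fold higher in keratinocytes alone (418 and 903 CPM), and Aldoa, an aldolase of glycolysis, lay between -0.48 and 0.38. The chaperone Hspa5 and the transcription factor Atf4 of the unfolded protein response lay between -0.32 and 0.93 and between -0.35 and 0.44. In cholesterol synthesis, Idi1 and the feedback protein Insig1 were lowest in endothelial cells, at 177 and 69.7 CPM and at 126 and 58.3, with ranges of -1.35 to 0.58 and -1.12 to 0.26. Igfbp7, a secreted binding protein of the senescence list, was 2-fold higher in keratinocytes (397 and 1062 CPM) and between -0.32 and 0.43 elsewhere where measured. Igfbp5 was lower in Schwann cells (1339 and 258 CPM) and higher in muscle precursor cells (404 and 1116). The part of fibroblast RNA in the higher Igfbp7 and Igfbp5 levels was not tested. The class II chains RT1-Db1 and RT1-Ba had ratios of 0.25 and 0.03 in phagocytes. Nfil3 and Cry2, repressors of the clock, lay between -0.48 and 2.62 and between 0.08 and 1.36, with Nfil3 highest in T and NK cells (27.8 and 171 CPM).

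Differences in 1 compartment alone were looked for among the 2911 genes measured in 3 or more: 2-fold or more in 1 compartment, log2 within 0.5 either way in every other one, and an interval beyond theirs. There were 31 such genes higher (1.06%) and 26 lower (0.893%). Keratinocytes had 15 of them, muscle precursor cells 15, T and NK cells 10, phagocytes 6 (all lower), endothelial cells 5, and Schwann, mural cells and fibroblasts 2 each. Genes measured in a single compartment, which say nothing about the others, are described beside them.

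**Figure D5:**
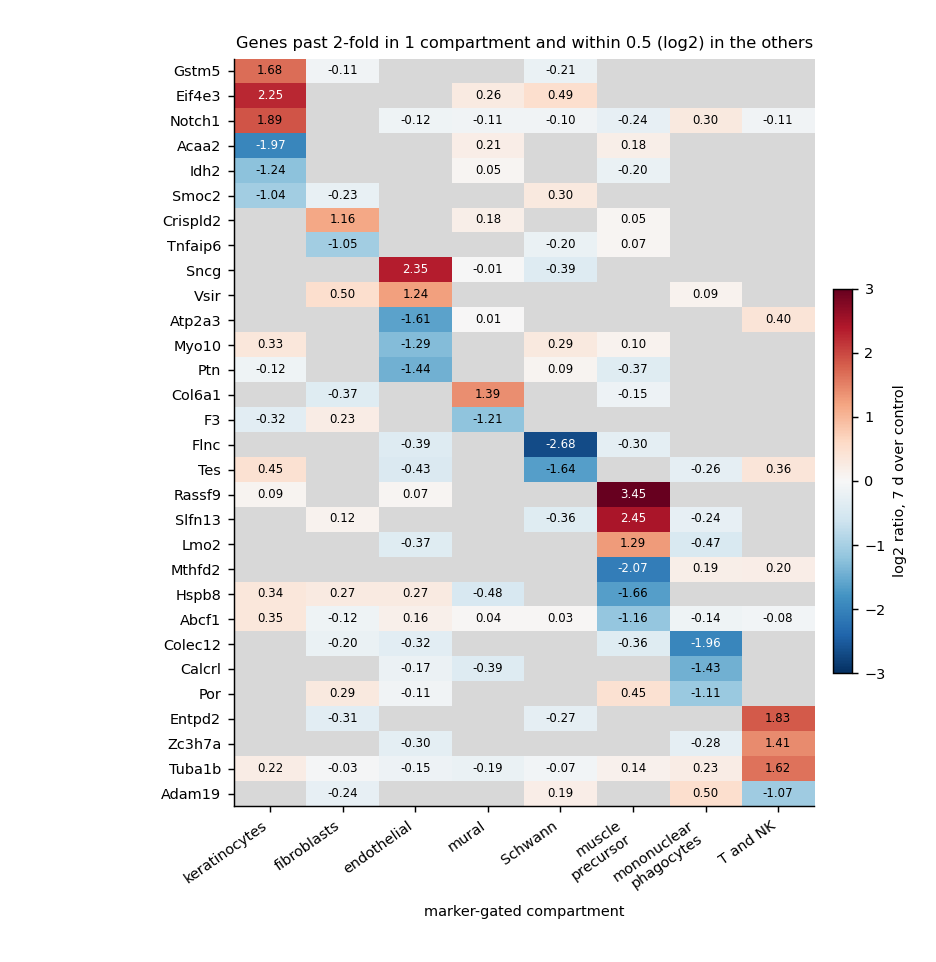
Log2 ratio of 7 d over control in each compartment (columns) for the up to 3 higher and 3 lower genes of each compartment (rows) that passed 2-fold there and stayed within 0.5 elsewhere, with grey where a gene was not measured. Each row has 1 strongly coloured cell, from 3.45 (Rassf9 in muscle precursor cells) to -2.68 (Flnc in Schwann cells), and pale cells otherwise.

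In keratinocytes, Notch1, the receptor that drives epidermal differentiation, went from 161 to 595 CPM (log2 ratio 1.89, 1.85 to 1.92), while in the 6 other compartments where it was measured it stayed between -0.24 and 0.30. Eif4e3, a cap-binding translation factor, went from 17.3 to 82.2 CPM and Gstm5, a glutathione transferase, from 15.8 to 50.5. The mitochondrial enzymes Acaa2 (fatty acid oxidation) and Idh2 (isocitrate dehydrogenase) were lower, from 90.8 to 23.2 and from 66.2 to 28.0 CPM, and Smoc2, a matricellular protein, went from 71.3 to 34.8. Among genes measured in keratinocytes alone (218, of which 26 higher and 26 lower by 2-fold), Reg3g, an antibacterial lectin, was at 0.359 CPM in control and 268 at 7 d, S100a8, a calprotectin subunit, at 6.88 and 62.7, and Eri3 at 9.89 and 52.7. Ccl27, the chemokine of epidermis for skin-homing T cells, was at 1009 and 91.7 CPM, Apoc1, an apolipoprotein, at 534 and 73.7, and Paqr5, a membrane progestin receptor, at 66.2 and 9.08. Of the gate markers, which chose the cells, the basal keratins Krt14 and Krt15 were at 1095 and 892 and at 5928 and 6480.1 CPM. The suprabasal Krt10 was at 4552 and 903. A marker of suprabasal cells was thus lower, as were the lower genes above and unlike the higher ones. The part of that layer in the differences of either direction was not tested.

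Fibroblasts, the largest compartment at 7 d, had 1 gene higher and 1 lower alone. Crispld2, a secreted protein, went from 96.2 to 214 CPM and Tnfaip6, which cross-links hyaluronan, from 4378 to 2113, while Tnfaip6 in muscle precursor cells was at 541 and 568. Of genes measured there alone, Pla2g2a, a secreted phospholipase, was at 372 and 1013 CPM, Trh, thyrotropin-releasing hormone, at 20.9 and 71.2 and Rida, a deaminase, at 19.6 and 63.1. Il1rl1, the receptor of interleukin 33, was at 210.0 and 39.5 CPM, Tnmd, tenomodulin, at 64.9 and 18.0 and Pdp1, a phosphatase that activates pyruvate dehydrogenase, at 66.3 and 25.5.

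In endothelial cells, Sncg, gamma-synuclein, went from 57.1 to 292 CPM while it stayed at 2401 and 2378 in mural cells. Vsir, an immune checkpoint, went from 31.6 to 74.7 CPM, and Ptn, the growth factor pleiotrophin, Atp2a3, a calcium pump, and Myo10, an unconventional myosin, were lower, from 256 to 94.6, from 70.5 to 23.1 and from 64.4 to 26.3. Measured there alone were Gbp4, an interferon-induced GTPase (6.08 and 146 CPM), and Usp18, which removes ISG15 (2.43 and 52.6). C1qtnf9 (174 and 38.0 CPM) and the adhesion molecule Ceacam1 (55.9 and 19.9) were lower, as was Agt, angiotensinogen. Usp18 had a log2 ratio of 3.90 in keratinocytes and 2.96 in fibroblasts at levels too low to count as measured.

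Mural cells had Col6a1, a collagen VI chain, higher alone (46.6 and 123 CPM, against 488 and 376 in fibroblasts) and F3, tissue factor, lower alone (59.9 and 25.8). The fibroblast markers summed to 2531 CPM in control mural cells and 4369.6 at 7 d, and the part of that RNA in the Col6a1 level was not tested. Cym, chymosin, went from 12.9 to 76.5 CPM there and nowhere else was measured. Ush1c, Dlk1, a Notch ligand relative, and Ppid, a cyclophilin, were lower, from 60.3 to 11.1, from 52.2 to 19.8 and from 51.4 to 22.5.

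In Schwann cells, the muscle-type filamin Flnc and the focal adhesion protein Tes were lower alone, from 196 to 30.7 and from 117 to 37.5 CPM. Pmp2, the myelin P2 protein, was at 59.6 and 366 CPM, Spp1, osteopontin, at 44.2 and 168 and Ecel1, a peptidase induced after nerve injury, at 30.8 and 115. Gap43, the growth-associated protein of regenerating axons and of non-myelinating Schwann cells, was at 631 and 62.5 CPM, Btc, betacellulin, at 144 and 25.0 and Fgf5 at 94.2 and 13.6. The 5 melanocyte markers summed to 142 CPM in control, with 1 at 0, and to 1059.8 at 7 d, with none at 0, though the median cell had none of them in either library. Their part in these differences was not tested.

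Muscle precursor cells, with 61 and 153 cells, were the fewest in control. Rassf9 went from 5.73 to 62.6 CPM (log2 ratio 3.45), Slfn13, an RNA nuclease, from 11.5 to 62.6 and the transcription factor partner Lmo2 from 37.2 to 90.8. Lower alone were Mthfd2, of mitochondrial folate metabolism (65.9 and 15.7 CPM), the small heat shock protein Hspb8 (109 and 34.4) and Abcf1, a translation factor (235 and 105). Asb2, a ubiquitin ligase subunit that lowers muscle mass, went from 2.86 to 83.0 CPM, Enho from 5.73 to 81.4 and Aldh3a2, a fatty aldehyde dehydrogenase, from 8.59 to 54.8. In this compartment of control 11.5 CPM was 4 UMIs. The control levels of Rassf9, Slfn13, Asb2, Enho and Aldh3a2 thus rest on 4 UMIs or fewer each, and the sizes of their ratios are uncertain. Col11a1, a fibrillar collagen, was at 112 and 12.5 CPM, Memo1 at 60.1 and 11.0 and the splicing factor Yju2 at 54.4 and 11.0.

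Mononuclear phagocytes had lower genes alone and no higher ones. Colec12, a scavenger receptor, was at 72.7 and 18.7 CPM, Calcrl, the receptor of adrenomedullin, at 54.1 and 20.02 and Por, the reductase of cytochrome P450 enzymes, at 103 and 47.8. Measured there alone, Il1b, interleukin 1 beta, went from 239 to 767 CPM, Slamf9 from 39.9 to 178 and Grasp, a receptor scaffold, from 14.2 to 84.6. Fcna, a ficolin of macrophages, was at 825 and 199 CPM and Selenop, the selenium carrier, at 94.0 and 16.8. The 10 neutrophil markers summed to 214 and 303 CPM in this compartment, and their part in the Il1b level was not tested. The 6 adipocyte markers summed to 2303 and 587, with 4 and 3 of them at 0.

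In T and NK cells, Il17a, the cytokine that mobilises epithelial defence, had 0 UMIs in control, where the exact upper limit is 10.3 CPM. At 7 d it had 73 UMIs (160.4 CPM, in 12.6% of 87 cells). With the 0 set to 3 UMIs (8.34 CPM), this level was 19.2-fold higher. Scart1, a scavenger receptor of gamma-delta T cells, and Srgap3 each went from 2.78 CPM, 1 UMI, to 54.9, with an interval of the log2 ratio of 1.69 to 9.66. Lef1, a transcription factor of naive T cells, was at 142 and 15.4 CPM, Ms4a4c at 108 and 26.4 and Rab3ip at 66.7 and 15.4. The tubulin Tuba1b went from 97.3 to 299 CPM while its other 7 log2 ratios lay between -0.19 and 0.23, Zc3h7a from 30.6 to 81.3 and Entpd2, an ectonucleotidase, from 16.7 to 59.3. Adam19, a metalloproteinase, was lower (398 and 189). In this compartment the fibroblast markers summed to 1716 CPM in control and 2956 at 7 d, those of mononuclear phagocytes to 100.1 and 257 and those of muscle precursor cells to 13.9 and 96.7, and their part in these differences was not tested.

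The later libraries, also 1 each, gave the 7 d values a place in time under the same gates. In fibroblasts, Mdm2 was at 102 CPM in control, 699 at 7 d and 189, 397, 166 at 14, 28 and 60 d, and Cdkn1a at 587, 623, 289. In keratinocytes Mdm2 stood at 296 CPM at 7 d and at 61.6, 87.9, 46.6 afterwards, against 84.0 in control, while Isg15 was at 70.8 at 7 d and 93.7, 18.7, 8.47 afterwards, from 5.69 in control. Endothelial cells took another course. Mdm2 there was at 117 CPM in control, 257 at 7 d and 288 and 364 at 14 and 28 d, and Phlda3 at 47.4, 253, 232 and 416. Both were thus highest at 28 d, in 55 endothelial cells, and not at 7 d. Phlda3 was also higher at 28 d than at 7 d in mural cells (267 and 208 CPM). In Schwann cells, with 70 cells at 28 d, its levels at 28 d and 7 d were close (671 and 619.7). The 60 d library had too few endothelial cells to give a value. RT1-T24-3 in fibroblasts was at 364 CPM at 7 d and 505, 84.8, 95.2 later, above the control library (7.96) each time. Nr1d1 was highest at 7 d in fibroblasts and in keratinocytes, with 37.8, 33.2, 11.6 CPM in fibroblasts and 16.3, 36.9, 11.4 in keratinocytes later. Eef1a1, lower throughout at 7 d, was lower again later, at 614, 525, 772 CPM in keratinocytes and 364, 239, 324 in fibroblasts. The 14 d library held 63 fibroblasts.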

How the data were processed

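The 3′ single-cell libraries (Chromium v3) were aligned to Rnor_6.0 by the authors, and the submitters' processing notes name Cell Ranger 5.0.0, STAR and Seurat 3.1.1. The deposited matrices hold raw UMI counts per gene and barcode, 113033291 in the control and 115467872 in the 7 d library. They list 10875 and 12239 barcodes, and kept cells had a median of 9407 and 8328 UMIs. Rows sharing a symbol were summed. A marker was on in a cell at 0.1 or more of the 95th percentile of cells with any. Counts were summed over a compartment's cells and divided by its total. Ratios have exact conditional binomial intervals, levels exact Poisson intervals at 95%, with 0 counts set to 3 in ratios; PCR and free RNA are outside them. Named genes are the 12 highest and 12 lowest shared genes, up to 3 each way per compartment among genes different alone and among genes measured there only, the 2 most abundant members of each of 19 lists, and Cdkn1a, Mdm2 and Nr4a1; other members were chosen after their values were seen. A gene that this rule names is not reported here. Members, lists (407 of 419 symbols found) and markers (94 of 100 found) were chosen with earlier results of these data known. Alternatives changed the scaling, filters, gate, handling of cells of several gates, weighting, and subtraction of RNA from other compartments; a minimum in both libraries was added after the data were seen. Scripts (Python 3.11.15, numpy 2.4.6, scipy 1.17.1, pandas 2.3.3) were tested on simulated data.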

Additional observations from a re-analysis of the deposited data

Results flagged for a closer look

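Over all measured genes, 38 were 2-fold or more higher at 7 d in 1 compartment and 2-fold or more lower in another, with both counting intervals beyond 0, and 10 of them belong to a gene list. They are given here because the 2 libraries moved in opposite directions in 2 compartments. The difference between compartments was not tested, since each has 1 library a group. No share over all genes measured in 2 or more compartments was taken, so no weight is put on the counts of 38 and 10. Some of these genes passed 50 CPM in 1 library alone and so had to differ there, as Bcl3 did in both of its compartments. Areg, an EGF receptor ligand, was higher in keratinocytes (183 to 391 CPM, log2 ratio 1.10) and lower in fibroblasts (53.3 to 21.7 CPM, log2 ratio -1.30). Bcl3, an NF-kB regulator, was higher in fibroblasts (26.8 to 66.9 CPM, log2 ratio 1.32) and lower in keratinocytes (50.6 to 22.1 CPM, log2 ratio -1.20). Ccl7, a monocyte attractant, was higher in mural cells (123 to 356 CPM, log2 ratio 1.53) and lower in mononuclear phagocytes (1968 to 641 CPM, log2 ratio -1.62). Cxcl10 was higher in Schwann cells (63.5 to 318 CPM, log2 ratio 2.33) and lower in mononuclear phagocytes (558 to 199.7 CPM, log2 ratio -1.48). Egr2, which drives myelination and is also an immediate early gene, was higher in Schwann cells (50.01 to 262 CPM, log2 ratio 2.39) and lower in keratinocytes (94.8 to 45.6 CPM, log2 ratio -1.06). Fn1, fibronectin, was higher in muscle precursor cells (452 to 1177 CPM, log2 ratio 1.38) and lower in endothelial cells (318 to 140.4 CPM, log2 ratio -1.18). Hspe1 was higher in T and NK cells (47.3 to 114 CPM, log2 ratio 1.27) and lower in muscle precursor cells (132 to 43.8 CPM, log2 ratio -1.59). Igfbp5, an insulin-like growth factor binding protein, was higher in muscle precursor cells (404 to 1116 CPM, log2 ratio 1.47) and lower in Schwann cells (1339 to 258 CPM, log2 ratio -2.37). Il6 was higher in Schwann cells (28.9 to 59.1 CPM, log2 ratio 1.04) and lower in fibroblasts (901 to 404 CPM, log2 ratio -1.16). Tnc, the matrix protein tenascin C, was higher in keratinocytes (26.4 to 125 CPM, log2 ratio 2.25) and lower in Schwann cells (631 to 254 CPM, log2 ratio -1.31). The fibroblast markers summed to 2915 and 5427 CPM in muscle precursor cells and to 1034 and 2049.8 in keratinocytes, control first. Their part in the higher Fn1, Igfbp5 and Tnc levels was not tested.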

How the results depend on the processing

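Over the 7 alternatives fixed at the start, the counts of shared genes ran from 10 to 19 (higher) and 0 to 0 (lower), and those of genes alone from 25 to 45 and 23 to 37. With 50 CPM asked of both libraries, a setting added after the data were seen that tests fewer genes, the shared higher genes numbered 2 in place of 14, genes lower alone 17, and the higher and lower counts were 50 and 31 in keratinocytes, 46 and 21 in fibroblasts, 54 and 33 in endothelial cells, 14 and 3 in mural cells, 47 and 26 in Schwann cells, 79 and 65 in muscle precursor cells, 79 and 44 in phagocytes and 114 and 22 in T and NK cells. The circadian median was then above 0 in 4 compartments, since fewer had 3 members measured. With a minimum of 10 CPM in place of 50, which tests more genes of low level, the higher and lower counts were 306 and 213 in keratinocytes, 165 and 63 in fibroblasts, 524 and 205 in endothelial cells, 87 and 27 in mural cells, 320 and 176 in Schwann cells, 464 and 281 in muscle precursor cells and 291 and 141 in phagocytes, and 141 were lower in T and NK cells. Scaling by the median gene ratio gave 56 lower in fibroblasts and 113 in muscle precursor cells; the cause was not tested. A stricter filter on cells gave keratinocyte shares of 49.1% and 15.9% and 57.0% fibroblasts at 7 d. Placing cells of several gates gave 49.0% and 17.8% keratinocytes and 30.4% and 58.2% fibroblasts. A gate with 1 more marker gave 54.3% fibroblasts at 7 d and, control then 7 d, 3.83% and 4.50% mural, 0.768% and 1.07% Schwann, 0.374% and 1.13% muscle precursor, 2.49% and 2.37% phagocyte and 0.532% and 0.495% T and NK cells; muscle precursor cells then fell under 50 in control and were not compared. The number of compartments with a median above 0 changed for 5 other lists. For chemokines it was 3 and became 1 with the stricter gate, with placed cells, with each cell weighted equally and with RNA of other compartments subtracted. For NRF2 targets it was 0 and became 1 with the stricter gate. For oxidative phosphorylation it became 3 with that gate, for the senescence list 5 with median scaling and with placed cells, and for DNA repair 0 with the stricter gate and with placed cells, 1 with equal weights and 7 at 10 CPM. Of single-gene ratios under the alternatives other than the 2 that set a minimum level, 2876 stayed within the counting interval and 636 left it, and no ratio past 2-fold changed sign. The ratio of Sec23b nearest to 0 was 0.16 with equal weights, so its common direction depends on that choice. No paired analysis was possible because each group is 1 library and the result comes from no test.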

Other observations

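Dbp, another output of the clock, was higher in 7 compartments, at 6.21 and 22.0 CPM in fibroblasts, 5.05 and 15.2 in keratinocytes, 8.44 and 29.4 in mural cells, 20.05 and 89.2 in muscle precursor cells, 5.56 and 28.6 in T and NK cells, 2.43 and 7.82 in endothelial cells and 17.3 and 21.6 in Schwann cells. It was lower in phagocytes (27.9 and 19.6), and was below the limit for being measured in all but muscle precursor cells. Arntl, which peaks when Nr1d1 is low, was lower in 7 compartments, at 53.4 and 42.7 CPM in fibroblasts, 21.2 and 15.9 in keratinocytes, 18.2 and 11.7 in endothelial cells, 20.5 and 12.9 in mural cells, 30.8 and 12.5 in Schwann cells, 43.0 and 31.3 in muscle precursor cells and 10.4 and 6.83 in phagocytes. It was higher in T and NK cells (16.7 and 35.2). Nr1d2, the paralog of Nr1d1, had log2 ratios between -0.44 and 0.81 over 8 compartments. These genes were chosen after their values were seen, and whether the time of sampling differed was not tested.

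Ccl27 was also lower outside keratinocytes, at 43.0 and 10.1 CPM in fibroblasts and 34.0 and 1.78 in endothelial cells, where it was not counted as measured. The keratinocyte markers there summed to 722 and 705 CPM in fibroblasts and 788 and 591 in endothelial cells.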
